A study of Homo sapiens with 6 samples.

Results

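The genes of the glycolytic route in H660 cells, from glucose import to lactate export, were followed in RNA-seq data with and without silencing of MUC1. They comprised 34 genes, chosen by symbol, among the 28008 genes in the count table, and all 34 were found in both the count and the TPM files. H660 (NCI-H660) is an androgen receptor-negative neuroendocrine prostate cancer (NEPC) line. Per the study's methods, all cells carried a puromycin-selectable tet-inducible vector with 1 short hairpin RNA against MUC1, a transmembrane mucin. Doxycycline (DOX) switches the hairpin on: the DOX-positive cells were cultured with it for a week at 500 ng/ml, and the DOX-negative cells received the DMSO vehicle. The sample titles give 3 DOX-negative and 3 DOX-positive libraries. No library with a scrambled hairpin and DOX is among the 6, so silencing of MUC1, other targets of this hairpin and DOX itself cannot be told apart. The labels say that cells were cultured in triplicate but not that the cultures were independent, so p-values measure the spread between these 6 samples.

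Glycolysis splits glucose into pyruvate in the cytosol and yields ATP and NADH. Most of its steps are catalysed by families of isoenzymes that differ in tissue distribution and regulation, and hexokinase, phosphofructokinase and pyruvate kinase are its regulated steps. Tumor cells often run it in the presence of oxygen and export the product as lactate. Many of its genes are known targets of MYC, which binds the E-box, and of the hypoxia-inducible factors, which bind the hypoxia response element. In bulk RNA, fewer cells expressing a gene and less RNA of it per cell cannot be told apart.

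The libraries held 47620696 to 74061121 counts. MUC1, the targeted gene, was at 88.2, 90.2 and 79.6 CPM (counts scaled to the TMM-normalized library size) in the DOX-negative libraries and at 36.7, 37.2 and 29.9 CPM in the DOX-positive libraries. With a log2 difference of -1.32 and an SE of 0.10 it passed the test described below (adjusted p = 0.000173). All 8 neuroendocrine markers examined were expressed, with CHGA (chromogranin A) at 190 to 239 CPM. Of these markers, 5 had a negative and 3 a positive log2 fold change with DOX. The 2 past the threshold were both lower, against 1.96% of all tested genes. They were NCAM1 (log2 fold change -0.50, adjusted p = 0.0142) and INSM1 (log2 fold change -0.45, adjusted p = 0.0389). CHGB was higher in each DOX-positive library than in each DOX-negative library but did not pass (log2 fold change 0.29, adjusted p = 0.175). The luminal marker KLK3 had 0 counts in each library. Summed over the marker lists, leukocyte markers were at 1.14 to 1.18 CPM without DOX and 1.84 to 2.02 CPM with DOX, and endothelial markers at 3.09 to 4.76 and 6.24 to 8.35 CPM. Fibroblast markers were at 25.1 to 30.6 and 23.4 to 27.9 CPM, with COL3A1 at 0 counts, and PTPRC, the pan-leukocyte marker, had 1 count in all. These lists held 3 fibroblast, 1 leukocyte and 2 endothelial genes with enough counts to test. Of these 2, 1 and 2 were called higher with DOX, against 2.91% of all tested genes. They were COL1A1 (log2 fold change 0.60, adjusted p = 0.0187), LUM (log2 fold change 1.06, adjusted p = 0.0297), CD68, VWF and CDH5. COL1A2 had a log2 fold change of -0.71 and did not pass. The part of these marker genes in the differences below was not tested. DOX-negative replicate 3 stood apart in another way. It held 9 genes above 0.5 CPM at 10 or more times their level in any other library, and the other 5 libraries held 0 such genes. These 9 genes, found after the values were seen, included JCHAIN, which joins secreted immunoglobulins, with 167 counts there and 1 count in the other libraries together, and IRF4, a factor of plasma cells, with 92 counts. LDHB, described below, was among them.

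The promoters of genes on which the comparison turned are shown first. The windows are the 250 bases upstream of a RefSeq transcript start (GRCh38.p14), printed 5′ to 3′ on the gene's strand. Capitals mark ACGTG and GCGTG, the cores of the hypoxia response element, on either strand, so that CACGT and CACGC are the same motifs read from the other strand. ADPGK was lower with DOX past the threshold, HK2 had the largest negative fold change, and LDHA was added after its values were seen. PGAM1, also lower past the threshold, is not shown because its window in the table starts within the gene.
ADPGK, chr15:72783759-72784008, minus strand: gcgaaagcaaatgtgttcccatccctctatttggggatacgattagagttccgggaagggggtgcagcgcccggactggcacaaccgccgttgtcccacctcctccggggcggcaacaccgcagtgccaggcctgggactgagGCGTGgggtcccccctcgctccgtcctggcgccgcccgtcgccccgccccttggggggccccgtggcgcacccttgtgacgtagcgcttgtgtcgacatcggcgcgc
HK2, chr2:74833877-74834126, plus strand: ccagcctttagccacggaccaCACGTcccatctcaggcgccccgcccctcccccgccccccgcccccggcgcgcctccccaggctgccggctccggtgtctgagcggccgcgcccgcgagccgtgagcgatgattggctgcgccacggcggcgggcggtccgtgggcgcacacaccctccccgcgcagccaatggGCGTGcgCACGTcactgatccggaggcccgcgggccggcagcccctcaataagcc
LDHA, chr11:18394313-18394562, plus strand: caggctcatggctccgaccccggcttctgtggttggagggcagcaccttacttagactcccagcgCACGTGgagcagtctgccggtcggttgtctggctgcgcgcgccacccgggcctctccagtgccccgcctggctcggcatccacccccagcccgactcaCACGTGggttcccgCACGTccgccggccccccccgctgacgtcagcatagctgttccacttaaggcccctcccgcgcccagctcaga

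The LDHA window shown held 2 E-boxes (CACGTG, which contains ACGTG) and 3 ACGTG sites, of which 2 lay in the E-boxes. It held 0 GCGTG sites and 0 GC boxes (GGGCGG, either strand). A second LDHA window starts within the gene and is not shown. It held 0 E-boxes, 0 ACGTG sites, 1 GCGTG site and 4 GC boxes. The HK2 window shown held 0 E-boxes, 2 ACGTG sites, 1 GCGTG site and 4 GC boxes. A second HK2 window, which starts within the gene and is not shown, held 2 E-boxes. In the ADPGK window there were 0 E-boxes, 0 ACGTG sites, 1 GCGTG site and 3 GC boxes. Of the 34 genes, 31 had a window in the table, with 59 windows in all. CACGTG occurred in 11.9% of these and in 6.34% of the 35116 windows of all genes outside chromosome 8. The shares were 30.5% and 18.5% for ACGTG, 30.5% and 32.2% for GCGTG, and 54.2% and 42.6% for GGGCGG. A match describes the letters of the window only.

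To see which isoenzyme carries each step, TPM, an abundance scaled per transcript length, were compared within libraries. GAPDH, which oxidizes glyceraldehyde 3-phosphate, had the highest level, at a mean of 447 TPM (314 to 660 over the 6 libraries), followed by enolase ENO1 at 377 TPM (209.8 to 579). PGK1 and ALDOA came next at 158 and 135 TPM, with overlapping ranges of 82.6 to 253.5 and 78.8 to 202.6. GPI was at 109 TPM, PKM at 99.6, LDHA at 91.9 and TPI1 at 81.7, and their ranges also overlapped. GAPDH and ENO1 together made up 47.4% to 51.3% of the summed TPM of the 34 genes in each library. Lower levels were seen for HK1 at a mean of 16.4 TPM, PGAM1 at 9.11, the glucose transporter SLC2A1 (GLUT1) at 8.73 and ADPGK at 4.84 TPM.

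**Figure D1:**
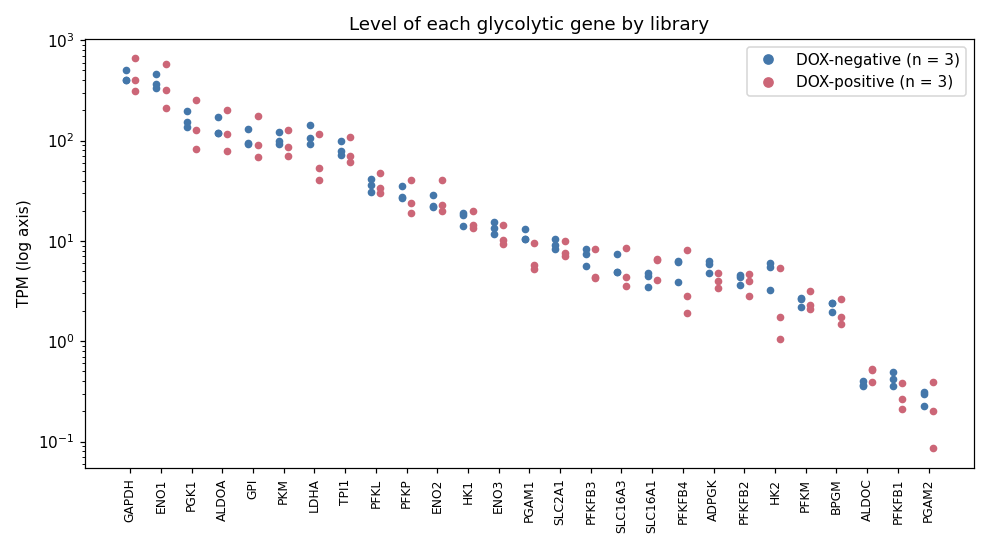
TPM (log axis) of the 27 tested glycolytic genes in order of their mean, with 1 point per library, blue for DOX-negative and red for DOX-positive (n = 3 each). GAPDH and ENO1 lie above 200 TPM in every library and ALDOC, PFKFB1 and PGAM2 below 1 TPM.

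Of the 34 genes, 7 had too few counts to be tested. SLC2A3 (GLUT3), the high-affinity neuronal transporter, had 1 count over the 6 libraries, HK3 42 counts, HKDC1 39, the testis forms GAPDHS and PGK2 15 and 19, and PKLR, the liver and red cell pyruvate kinase, 11. A count of 0 in a library allows up to 3 counts, which is 0.0397 to 0.063 CPM here, and covers counting error only. LDHB, the heart-type lactate dehydrogenase subunit, had 93 counts (1.95 CPM) in DOX-negative replicate 3 and 7 counts in the other 5 libraries together. This is the library that also held JCHAIN and IRF4, whose part in the LDHB counts was not tested. LDHA made up 99.4% of the summed LDHA and LDHB TPM in that library and 99.98% on average in the DOX-positive libraries.

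Among the 14 steps, 12 had at least 2 listed genes, and the dominant form was the same in all 6 libraries for each of these except lactate export. SLC2A1, ALDOA, GAPDH, PGK1, PKM and LDHA each made up over 99% of the listed genes of their step in every library. For glucose import the only other listed gene was SLC2A3. The 8 other hexose transporters examined below summed to 8.66 to 13.6 TPM per library, against 7.05 to 10.4 TPM for SLC2A1. LDHC, also outside the list, was at a mean of 0.572 TPM. The PKM counts do not separate its M1 and M2 splice forms. Phosphofructokinase, which commits glucose to glycolysis, was shared between PFKL, at 52.8% ± 1.91 without DOX and 55.5% ± 3.05 with DOX (SD, n = 3), and PFKP, at 43.5% ± 2.17 and 40.7% ± 3.55, while the muscle form PFKM held 3.69% and 3.81%. For the bifunctional enzymes that make and degrade fructose 2,6-bisphosphate, PFKFB3 led with 41.1% ± 1.74 and 40.8% ± 1.78. PFKFB4 ranged from 18.2% in DOX-positive replicate 3 to 37.8% in DOX-positive replicate 1, close to the 38.8% of PFKFB3 in the latter.

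Glucose phosphorylation was mostly HK1, the widely expressed hexokinase, at 66.2%, 60.7% and 57.9% of the step without DOX and 66.0%, 72.2% and 73.8% with DOX. HK2, the inducible hexokinase, held 11.9%, 19.3% and 22.4% without DOX and 18.0%, 9.4% and 5.43% with DOX. The groups overlapped for both genes, and the HK1 share differed by 9.05 percentage points (two-sided exact permutation p = 0.2, adjusted p = 0.6). ADPGK, the ADP-dependent glucokinase, held 20.4% ± 1.22 and 18.2% ± 2.38.

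In the mutase step, PGAM1, the widely expressed phosphoglycerate mutase, held 79.4%, 83.0% and 82.7% without DOX and 76.1%, 77.4% and 74.4% with DOX. The groups did not overlap, and the mean share was lower by 5.72 percentage points with DOX. The remainder was mostly BPGM, which makes 2,3-bisphosphoglycerate, at 16.3% ± 1.79 and 21.7% ± 2.39. With 3 against 3 libraries the exact two-sided permutation test cannot go below p = 0.1, the value it gave for PGAM1 (adjusted p = 0.6 over the 12 dominant shares). Of these 12 shares, 2 did not overlap between the groups, that of PGAM1 and that of GAPDH, whose difference was 0.00501 percentage points.

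Enolase was 91.0% ± 0.716 and 89.9% ± 2.07 ENO1. The neuronal form ENO2 held 5.77% ± 0.312 and 7.05% ± 1.03 and the muscle form ENO3 3.22% ± 0.416 and 3.06% ± 1.05. ENO2 held this low share of the step at 26.0 TPM, a level above that of HK1. For lactate export, SLC16A3 (MCT4) led in 5 libraries, at 52.4%, 61.0% and 58.9% without DOX and 56.8% and 51.8% in DOX-positive replicates 1 and 2. In DOX-positive replicate 3 it held 34.6% and SLC16A1 (MCT1) 65.4%.

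**Figure D2:**
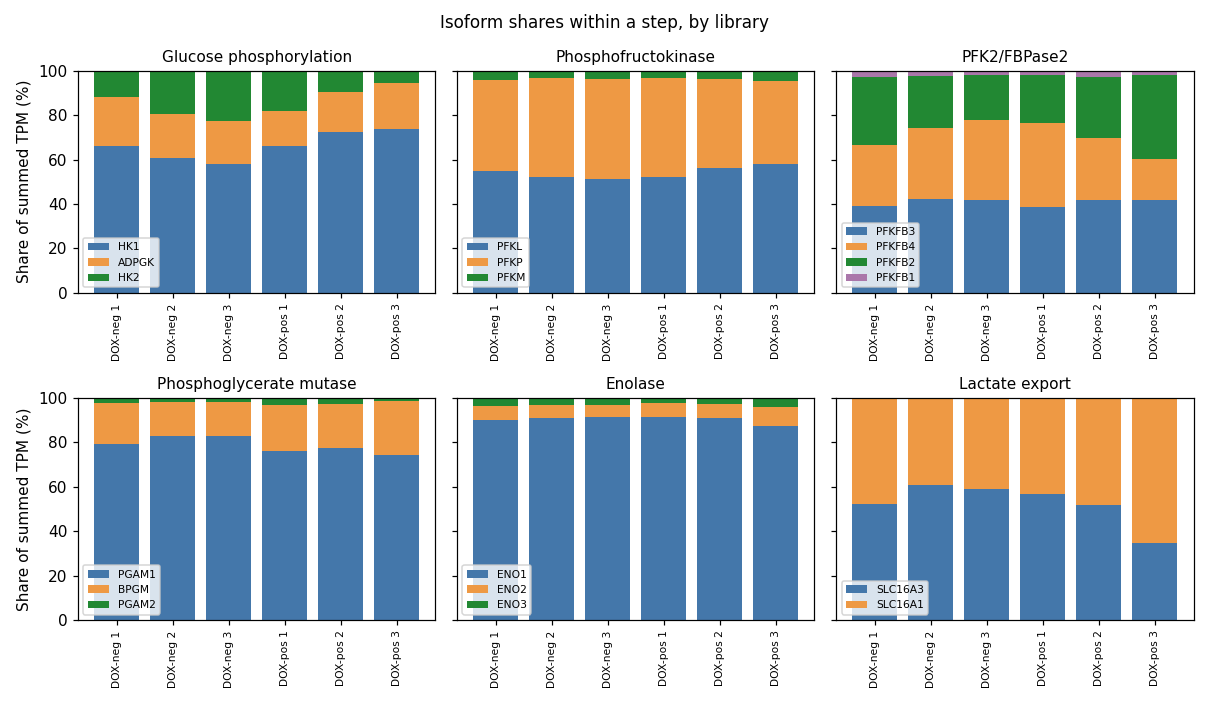
Share of each isoform in the summed TPM of its step (%), stacked per library, for the 6 steps with more than 1 isoform above 0.5% on average. PGAM1 holds less of its step in each DOX-positive library (74.4% to 77.4%) than in each DOX-negative library (79.4% to 83.0%), and SLC16A1 exceeds SLC16A3 only in DOX-positive replicate 3.

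The DOX-positive and DOX-negative libraries were then compared gene by gene with edgeR over all 17026 genes with enough counts, of which 829 (4.87%) passed an adjusted p of 0.05. Of the 27 glycolytic genes tested, 2 were called, PGAM1 and ADPGK, both lower with DOX, against 1.96% of all tested genes called lower. At an unadjusted p of 0.05, 8 of the 27 passed, against 21.1% of all tested genes. Without DOX-positive replicate 3 the count was also 2, whereas without DOX-negative replicate 3, the library with the LDHB counts, edgeR called 0 of them (5 at an unadjusted p of 0.05) and 58 of all genes. The median log2 fold change was -0.15 over the 27 genes (6 higher, 21 lower) and 0.00034 over all tested genes. The median of the glycolytic genes was 0.016 without DOX-positive replicate 3, -0.31 without DOX-positive replicate 1 and -0.25 without DOX-negative replicate 1.

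**Figure D3:**
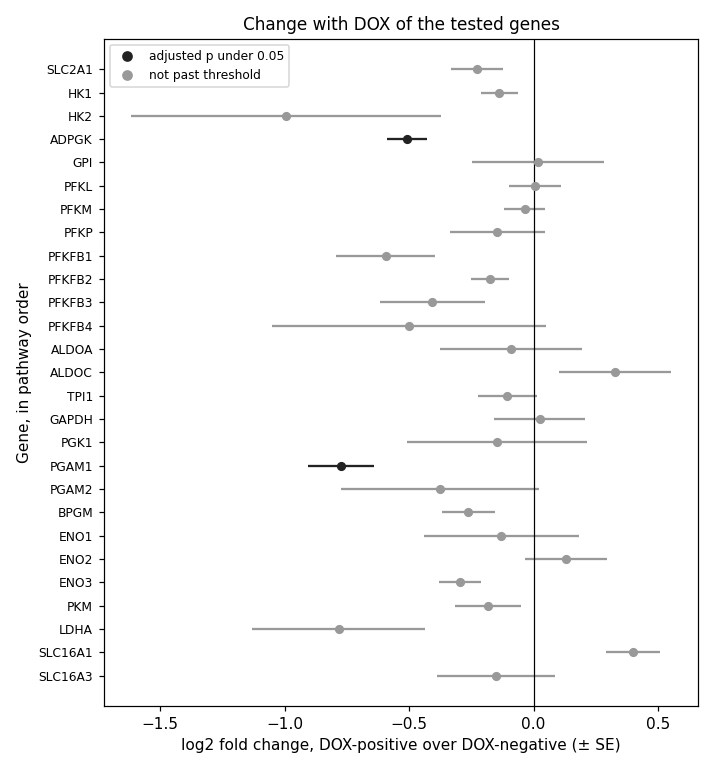
Log2 fold change (DOX-positive over DOX-negative) ± SE of the 27 tested glycolytic genes in pathway order, with black points for an adjusted p under 0.05. PGAM1 at -0.77 and ADPGK at -0.51 are the black points, and the widest error bar is that of HK2, at -0.995 with an SE of 0.62.

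PGAM1, on chromosome 10 (97426191 to 97433444), was at 36.7, 44.3 and 45.3 CPM without DOX and 28.4, 26.0 and 19.5 CPM with DOX. Each DOX-positive library was below each DOX-negative library, and the log2 fold change was -0.77 (SE 0.13, adjusted p = 0.0103). Leaving out 1 library at a time gave -0.89 to -0.63, and the call was lost without DOX-negative replicate 3 (adjusted p = 0.0824) and without DOX-positive replicate 2 (adjusted p = 0.0619). The names table lists 13 pseudogenes of PGAM1, and how reads shared with copies were counted is not given in the sources used here, so its counts are uncertain to that extent. PGAM4, a near-identical intronless copy looked up after the values were seen, had 51, 60 and 32 counts without DOX and 44, 22 and 19 with DOX (log2 fold change -0.98, adjusted p = 0.0805).

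ADPGK, on chromosome 15 (72751294 to 72783758), was at 28.2, 28.1 and 27.6 CPM without DOX and 18.9, 20.3 and 19.7 CPM with DOX. The groups lay well apart with little spread within them, and the log2 fold change was -0.51 (SE 0.08, adjusted p = 0.00698). The change was -0.53 to -0.48 when 1 library was left out. The adjusted p was 0.0505 without DOX-negative replicate 2 and 0.0539 without DOX-negative replicate 3, fits in which edgeR called 127 and 58 of all genes. The antisense gene ADPGK-AS1 overlaps ADPGK and had 4 to 15 counts per library, and whether counting used strand is not given in the sources used here. HK1, at 143.5, 143.7 and 137.7 CPM without DOX and 132.3, 135.1 and 118.7 CPM with DOX, did not pass (log2 fold change -0.14, SE 0.07, adjusted p = 0.312).

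HK2, on chromosome 2 (74834127 to 74893359), was at 40.9, 72.7 and 84.7 CPM without DOX and 57.3, 28.0 and 13.9 CPM with DOX. DOX-positive replicate 1 lay above DOX-negative replicate 1, and the 3 DOX-positive libraries spanned 4.12-fold, so the difference did not pass (adjusted p = 0.455). SLC2A1, the dominant glucose importer of the list, was at 53.2, 62.9 and 71.9 CPM without DOX and 53.0, 57.0 and 50.4 CPM with DOX (log2 fold change -0.23, SE 0.10, adjusted p = 0.23). LDHA, which reduces pyruvate to lactate and lies on chromosome 11 (18394563 to 18408425), was at 398, 588 and 563 CPM and at 422, 295 and 183 CPM. For LDHA too, DOX-positive replicate 1 lay within the range of the DOX-negative libraries, and the change of -0.78 did not pass (SE 0.35).

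Of the PFKFB genes, PFKFB1 had the largest fold, from 1.31, 1.45 and 1.37 CPM without DOX to 1.01, 1.05 and 0.69 CPM with DOX, with no overlap but below the threshold (log2 fold change -0.59, SE 0.20, adjusted p = 0.109). PFKFB3, the dominant form, was at 49.3, 68.9 and 80.9 CPM and at 61.8, 47.8 and 40.5 CPM, with overlapping groups. PFKFB2 had a log2 fold change of -0.17 and PFKFB4 of -0.50, neither past the threshold. PFKL, PFKM and PFKP had changes of 0.01, -0.04 and -0.15.

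SLC16A1, which exchanges lactate and pyruvate across the membrane, had the largest positive fold change, at 37.0, 37.1 and 34.7 CPM without DOX and 44.2, 42.1 and 56.9 CPM with DOX. The groups did not overlap, and the adjusted p was 0.0573 (log2 fold change 0.40, SE 0.11). Muscle-type enolase ENO3 was at 33.3, 35.4 and 34.9 CPM without DOX and 29.7, 28.8 and 26.0 CPM with DOX, again without overlap and just outside the threshold (log2 fold change -0.30, SE 0.08, adjusted p = 0.0644). DESeq2 called 4 of the genes, these 2 and the 2 called by edgeR. It called 1354 of all genes, against 829 by edgeR. In all, 7 of the 27 genes (25.9%) were lower in each DOX-positive library than in each DOX-negative library, against 13.3% of all tested genes, and 1 (3.7%) was higher, against 14.8%. The lower ones were HK1, ADPGK, PFKFB1, PFKFB2, PGAM1, BPGM and ENO3. Without DOX-negative replicate 1 the lower ones numbered 12 (44.4%, against 19% of all tested genes), without DOX-positive replicate 1 also 12 (against 18.9%), and without DOX-positive replicate 3 the higher ones numbered 4 (14.8%, against 18.6%).

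**Figure D4:**
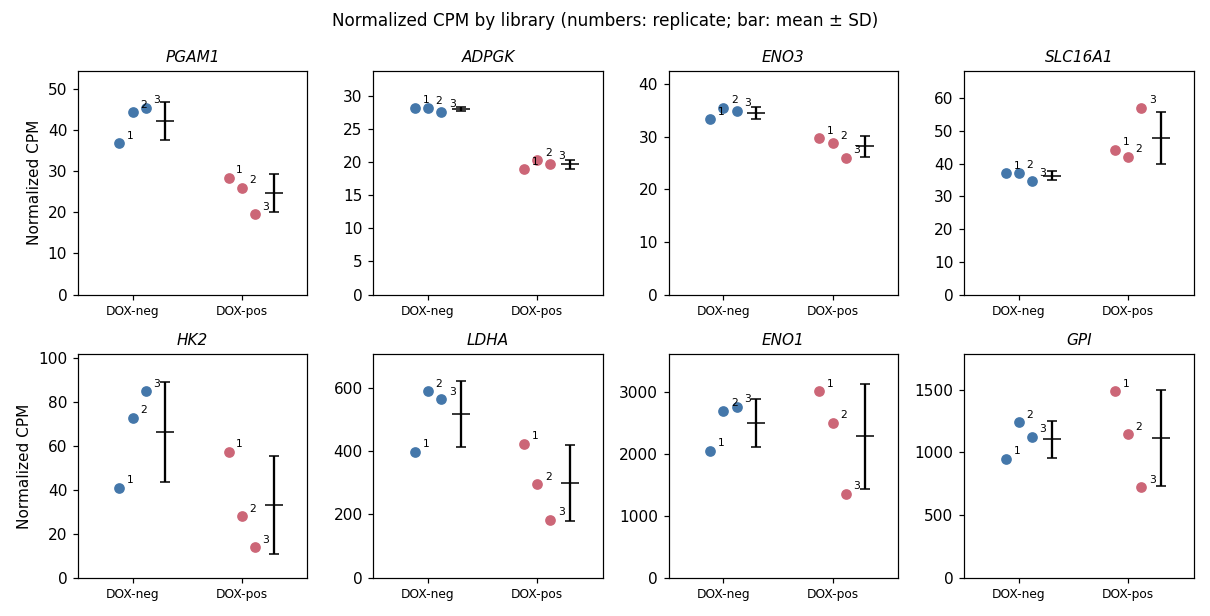
Normalized CPM of 8 glycolytic genes by library, with replicate numbers beside the points and the mean ± SD (n = 3) as a bar. PGAM1, ADPGK, ENO3 and SLC16A1 do not overlap between the groups, whereas HK2, LDHA, ENO1 and GPI do.

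Most of the abundant enzymes of the route spread widely among the DOX-positive libraries. ENO1 was at 2057, 2699 and 2765 CPM without DOX and 3015, 2503 and 1357 CPM with DOX, so that the DOX-positive libraries held both the highest and the lowest value. GAPDH was at 1246, 1506 and 1521 CPM and at 1729, 1596 and 1021 CPM. The DOX-positive libraries had the same order for GPI, which isomerizes glucose 6-phosphate, at 950.5, 1239 and 1125 CPM and at 1487, 1144 and 722 CPM. PGK1, the first ATP-generating enzyme, was at 556, 761 and 767 CPM and at 872, 655.5 and 353 CPM, and ALDOA, the aldolase, at 723, 976 and 874 CPM and at 1024, 893 and 495 CPM. Together with PFKP, PGAM2, ENO2 and SLC16A3 these were 9 of the 27 genes (33.3%) whose highest library was DOX-positive replicate 1 and whose lowest was DOX-positive replicate 3, against 1.47% of all tested genes. Because the 9 genes were picked for having both extremes in DOX-positive libraries, their spread had to be wider in that group and the groups had to overlap. The spread was 1.66-fold to 3.66-fold within the DOX-positive group, and 1.07-fold to 1.42-fold within the DOX-negative group. The log2 fold changes of the 9 genes were -0.38 to 0.13 and none passed the threshold in edgeR or DESeq2, which the same choice favors.

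PFKL was at 213, 232 and 224 CPM without DOX and 237, 252 and 183 CPM with DOX. TPI1, which interconverts the triose phosphates, was at 242, 289 and 267.5 CPM and at 275, 272 and 196 CPM. PKM, the last ATP-generating enzyme, was at 584, 690.5 and 672 CPM and at 638, 642 and 436 CPM. SLC16A3 was at 20.8, 29.6 and 25.5 CPM and at 29.7, 23.2 and 15.4 CPM. In these 4 genes 2 of the DOX-positive libraries lay within or above the DOX-negative range and DOX-positive replicate 3 lay below it.

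Over all 27 genes, 23 (85.2%) had their lowest value in DOX-positive replicate 3, against 23.3% of all tested genes, and the median deviation of log2 CPM from a gene's mean over the 6 libraries was -0.47 in that library. It was 0.11 and 0.02 in the other DOX-positive libraries and -0.07, 0.19 and 0.16 in the DOX-negative libraries. The exceptions to the low values in DOX-positive replicate 3 were ADPGK, PFKFB2, ALDOC and SLC16A1. The summed CPM of the 34 genes was 7818, 9984 and 9819 without DOX and 10667, 9099 and 5637 with DOX, or 9207 ± 1206 and 8468 ± 2574 (SD, n = 3). DOX-positive replicate 3 had MUC1 at 29.9 CPM, the lowest of the 6, a depth of 74061121 counts, close to the 73633898 of DOX-positive replicate 1, and 6.85% of its counts on RN7SK, within the 5.83% to 7.79% of the others.

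**Figure D5:**
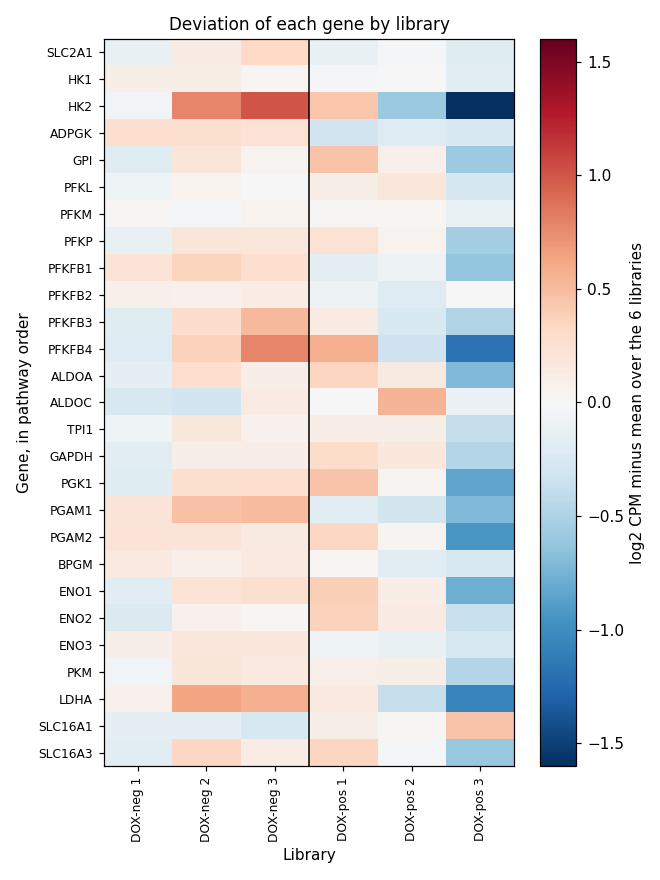
Log2 CPM minus the mean over the 6 libraries for the 27 tested genes in pathway order (rows) and the 6 libraries (columns), blue for below and red for above the mean. The column of DOX-positive replicate 3 is blue for nearly all genes except SLC16A1 and PFKFB2, and ADPGK is red in the DOX-negative and blue in the DOX-positive columns.

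Hypoxia-responsive genes outside glycolysis were given beside these values because many glycolytic genes also respond to low oxygen. Of 12 listed, 11 were tested, and the other was CA9, with 7 counts in all. Among those tested, 0 were called by edgeR and 5 passed an unadjusted p of 0.05, against 21.1% of all tested genes. Of the 11, 8 had a negative and 3 a positive log2 fold change. Among the 5 was ADM, which was higher in each DOX-positive library than in each DOX-negative library (log2 fold change 0.42, adjusted p = 0.0707). DESeq2, and edgeR with the replicate block or with no count filter, called 1, ANKRD37, and limma-voom 0. EdgeR called 4 without DOX-positive replicate 1 (EGLN3, ANKRD37, KDM3A and BHLHE40), where it called 1035 of all 17191 tested genes. Without DOX-negative replicate 1 it called 2, and 633 of all 17217 tested genes. The lowest library of the hypoxia-responsive genes was DOX-positive replicate 3 for 7 of the 11. Their median deviation was -0.06, 0.36 and 0.33 without DOX and 0.10, -0.32 and -0.53 with DOX. BNIP3, NDRG1, P4HA1 and VEGFA had the highest value in DOX-positive replicate 1 and the lowest in DOX-positive replicate 3, as the 9 glycolytic genes had. The highest was 3.06, 4.03 and 4.28 times the lowest for BNIP3, NDRG1 and P4HA1, but only 1.19 times for VEGFA. NDRG1, chosen after its values were seen, was at 826, 1357 and 1347 CPM and at 1831, 997 and 455 CPM. What part the state these genes report had in the glycolytic values was not tested.

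Genes of adjoining glucose pathways were examined by the same fit. Of 53 listed, 48 were tested, 29 with a higher and 19 with a lower mean, with a median log2 fold change of 0.03. Both genes called, SLC2A12 and PDK4, rose with DOX, against 2.91% of all tested genes called higher. SLC2A12, a hexose transporter, was at 4.88, 4.23 and 3.76 CPM without DOX and 6.52, 6.71 and 10.2 CPM with DOX (log2 fold change 0.86, SE 0.17, adjusted p = 0.019). The call was lost without DOX-negative replicate 2 (adjusted p = 0.0782), where edgeR called 127 of all 17243 tested genes. It was also lost without DOX-negative replicate 3 (adjusted p = 0.125), where edgeR called 58 of all 17207. PDK4, a kinase that inactivates pyruvate dehydrogenase, was at 7.93, 6.01 and 5.54 CPM and at 8.74, 9.93 and 14.7 CPM (log2 fold change 0.77, SE 0.19, adjusted p = 0.0476), and was called in 6 of 18 alternatives. Without DOX-positive replicate 3, where both genes were highest, the changes were 0.62 for SLC2A12 (adjusted p = 0.0331) and 0.52 for PDK4 (adjusted p = 0.0938). None of the 10 glycogen genes, the 4 tested gluconeogenesis genes or the other pyruvate genes was called in the main edgeR fit. DESeq2 called PGM2 among them, as did edgeR with no count filter, with the replicate block and without DOX-positive replicate 2. EdgeR also called DLD without DOX-positive replicate 2 and GBE1 without DOX-positive replicate 1.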

How the data were processed

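The RNA-seq libraries were made with a stranded mRNA kit from total RNA of 3 DOX-negative and 3 DOX-positive H660 cultures. The authors deposited raw gene counts and TPM per library. The submitters' processing notes name STAR, DESeq2 and GRCh38; versions, annotation and strand setting are not given in the sources used here. Groups came from the sample titles. All genes of the count table were fitted with edgeR 4.0.16 (R 4.3.3, filterByExpr, TMM, robust quasi-likelihood test, Benjamini-Hochberg over 17026 genes, threshold 0.05). The fit was also run on simulated counts with the same dispersion for every gene, a simpler setting than these libraries. CPM used TMM library sizes. Isoform shares used TPM within a library, since RN7SK held 21.2% to 27.1% of all TPM. Alternatives used DESeq2 1.42.0 and limma 3.58.1. The glycolytic genes and all lists were chosen with earlier results of these data known. Named with every library value were called genes, the dominant form of each step and the 5 largest changes, and called genes of the other lists; ENO3, SLC16A1 and HK1 were added for their lack of overlap and the other values shown after they were seen. Replicates differed by more than sampling noise. Promoters are from RefSeq (GRCh38.p14); coordinates are from the same build.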

Additional observations from a re-analysis of the deposited data

How the results depend on the processing

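The glycolytic genes were recomputed under 12 other fits of the 6 libraries and 6 fits without 1 library. The filtered TPM fits tested 24 of them and the stricter count filter 26, and DESeq2 gave adjusted p values for 26. PFKFB1 and ALDOC thus had 16 alternatives and PGAM2 14. The number called was 2, and 3 with upper-quartile scaling, no count filter or the replicate block, 4 by DESeq2, 1 (HK2, not PGAM1 or ADPGK) by limma-trend on log2(TPM + 1) or log2(TPM + 0.1) with a filter, 0 without that filter, and 0 to 3 with 1 library left out. All genes called were 829 by edgeR, 1354 by DESeq2, 30, 35 and 0 by limma-trend in that order, 1125 with no count filter and 58 to 1035 with 1 library left out. PGAM1 and ADPGK stayed lower throughout and were called in 13 of 18 alternatives each. For the adjoining pathways the 2 calls became 1 with RLE factors, library size only or limma-voom, 4 with DESeq2, 0 in the 3 limma-trend fits, and 0 to 5 without 1 library. MUC1 lost its call only with unfiltered log2(TPM + 1) (-1.22, adjusted p = 0.286). The 2 shares without overlap became 1 with isoforms of at least 1 TPM, and 2 to 6 without 1 library. HK2 was called by both filtered limma-trend fits (adjusted p = 0.0242 and 0.00739), LDHA without DOX-positive replicate 1 (0.0458) and SLC16A1 in 5 alternatives. The cause of these shifts was not tested.

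Direction reversed for 12 genes, none of them called. GPI was -0.036 by limma-voom, -0.012, -0.013 and -0.012 in the limma-trend fits, -0.037 with the replicate block and -0.24 to 0.25 without 1 library. PFKL was -0.00061 with RLE factors, -0.0052 with library size only, -2.8e-05 with the stricter filter, -0.0068 by limma-voom, -0.0054 with the replicate block and -0.083 to 0.13 without 1 library. GAPDH was -0.0063 by limma-voom, -0.0052 with the replicate block and -0.12 to 0.22 without 1 library. Without 1 library, the ranges were -0.058 to 0.0083 for PFKM, -0.31 to 0.051 for PFKP, -0.30 to 0.16 for ALDOA, -0.19 to 0.039 for TPI1, -0.46 to 0.14 for PGK1, -0.82 to 0.024 for PGAM2, -0.38 to 0.14 for ENO1, -0.042 to 0.31 for ENO2 and -0.39 to 0.067 for SLC16A3.

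Deviations from the group mean had correlations of -0.58, 0.028 and -0.071 over 14256 genes between samples with the same replicate number. No pair had a strong positive correlation. The check cannot tell whether a pair shared a culture or batch, because deviations of 3 libraries from their own mean are not independent. With the replicate block 3 glycolytic genes and 998 of all genes were called, PGAM1 at -0.78 (adjusted p = 0.0037) and ADPGK at -0.51 (adjusted p = 0.0021). The 3 libraries a group limit the precision for genes as variable as HK2 (SE 0.62).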
